A study of Mus musculus with 8 samples.

Results

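The genes described here are the protein-coding genes of the mouse major histocompatibility complex (MHC) whose symbols begin with H2-. They were taken from the deposited table of gene FPKM (fragments per kilobase of gene, scaled by library size) as the protein-coding rows with a name beginning H2-, which gave 34 of 54532 genes. All 34 lie on chromosome 17, between bases 33996017 and 37483552 in the coordinates of the table (mm10 per the submitters' processing notes). By class they are 2 classical class I genes, 22 nonclassical class I genes, 4 class II genes of the antigen-presenting chains, 5 class II genes of the peptide-loading machinery, and H2-Ke6, which carries the H2 prefix for its position and encodes a short-chain dehydrogenase.

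Brown adipose tissue, the fat in which mice make heat, was profiled by RNA sequencing in 4 CLCF1-ATG transgenic mice (TG) and 4 wild-type mice (WT), numbered 1, 2, 3 and 5 in each group. CLCF1 is a secreted relative of interleukin-6, and the study asked how it acts on brown fat. The sources used here do not give the promoter that drives the transgene, nor the strain, sex and age of the mice. H2- genes differ in sequence between mouse strains, which affects how reads match the reference, and the part of this in the H2- levels and ratios was not tested. No other allele or agent is named for either group.

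MHC class I molecules are carried by nearly all nucleated cells, where a heavy chain and its light chain, beta-2-microglobulin, hold peptides cut by the proteasome and show them to CD8+ T cells. The nonclassical class I molecules are less variable relatives with narrower tasks, among them binding receptors of natural killer cells and gamma delta T cells. MHC class II molecules are pairs of an alpha and a beta chain that show peptides from endosomes to CD4+ T cells, and in adipose tissue they are known from macrophages, dendritic cells, B cells and, in obese mice, adipocytes.

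Clcf1 followed the labels, with 78.7 to 89.9 FPKM in TG libraries and 0.434 to 3.40 FPKM in WT libraries (log2 change 4.87, adjusted p = 3.66e-06, limma). Reads recovered from the table numbered 18494022 to 20183840 per TG library and 13734231 to 15751302 per WT library. Mitochondrially encoded transcripts took 6.09% to 7.34% of the reads in TG and 24.1% to 37.5% in WT, so the libraries differ in composition as well as in depth. Markers of brown adipocytes were present in both groups, but at a much lower level in TG. The 9 listed genes summed to 623 to 1034 FPKM in TG and 6972 to 9868 FPKM in WT. Of these genes 7 were lower in TG, among them Cidea, Cox7a1 and Dio2. Genes were tested where 4 or more libraries reached 0.5 FPKM. Of these 12508 genes, 44.1% passed an adjusted p of 0.05, 22.3% as higher in TG and 21.8% as lower. The median change of these genes was 0.01 on the log2(FPKM + 1) scale, on which all log2 changes below are given as TG minus WT. Changes of genes at low FPKM are understated on this scale.

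MHC transcripts were more abundant in the brown fat of TG mice, in class I and in class II. Summed over the 34 genes, they had 2449 ± 186 FPKM in TG and 968 ± 133 FPKM in WT (SD, n = 4 each), a ratio of 2.53. They took 0.700% ± 0.0470 of all reads in TG and 0.203% ± 0.0166 in WT (SD, n = 4 each). These shares differ more than the FPKM, and mitochondrial transcripts took more of all reads in WT. Of the 34 genes, 16 reached the level at which they were tested, 11 had reads but stayed below it, and 7 had no read in any library. Among the 16 tested genes, 14 were higher in TG, where 22.3% of all tested genes were. H2-Q10 was the 1 gene that was lower, where 21.8% of all tested genes were, and H2-T24 did not pass the threshold. The median log2 change of the 16 was 0.94, and 6 of them were higher by a log2 change above 1, as were 5.12% of all tested genes. In 12 of the 16 the 4 TG values lay above all WT values, as in 22.1% of all tested genes, and in H2-Q10 they lay below all of them, as in 20.5%. H2-Ob reached the tested level in 4 TG libraries and 1 WT library, so its place among the tested genes already rested on the group where it is higher. Because whole tissue was sequenced, more cells of a type and more RNA per cell cannot be told apart in any of these values.

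The libraries kept a partial order within each group. TG 2 was the highest TG library in 10 of the 16 tested genes and TG 5 the lowest in 7, while WT 5 was the highest WT library in 12 and WT 2 the lowest in 9. In the order of mean FPKM, H2-Eb1 followed the classical class I pair in both groups, and H2-Aa and H2-Ab1 followed it with ranges that overlapped each other. H2-Q10 had rank 11 of the 16 genes in TG and rank 7 in WT. When only reads from outside the mitochondrial genome set the scale, an alternative added after the data were seen, the log2 changes were 1.43 for H2-D1, 1.89 for H2-K1, -0.97 for H2-Q10, 0.95 for H2-Eb1 and 0.98 for H2-Aa, and the 5 genes kept their calls.

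**Figure D1:**
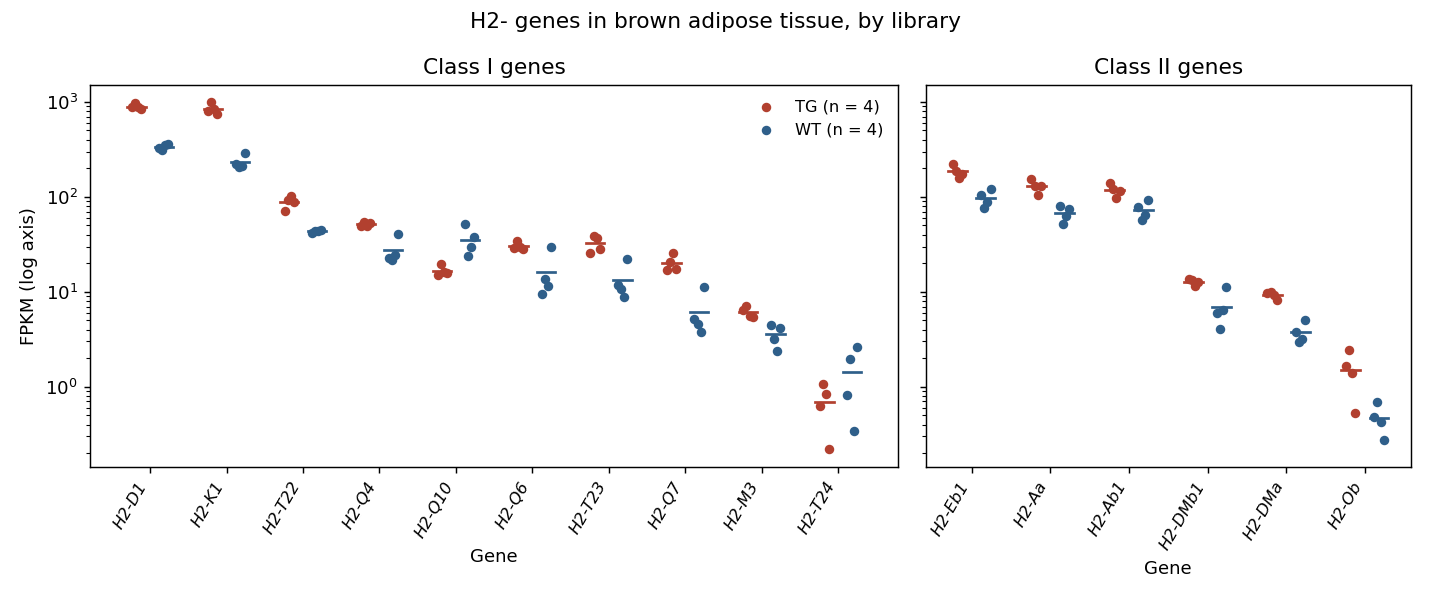
FPKM of the 16 tested H2- genes in each library, on a log axis, with class I genes on the left and class II genes on the right. Each point is 1 mouse and each bar the mean of 4. TG stands left of WT for each gene, and the groups separate for 13 of the 16 genes, with H2-Q10 the gene whose TG values are the low ones.

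The classical class I heavy chains H2-D1 and H2-K1, which present peptides to CD8+ T cells, were the most abundant members and rose the furthest in FPKM. H2-D1 (ENSMUSG00000073411, 35262730 to 35267499, plus strand) had 893, 975, 875 and 834 FPKM in TG 1, 2, 3 and 5 and 326, 310, 348 and 364 FPKM in WT 1, 2, 3 and 5. The groups were far apart, and within each group the libraries differed little. The log2 change was 1.41 (SE 0.11, adjusted p = 1.61e-05, limma). H2-K1 (ENSMUSG00000061232, 33996017 to 34000333, minus strand) had 799, 991, 846 and 753 FPKM in the TG libraries and 222, 209, 212 and 287 FPKM in the WT libraries. WT 5 stood above the other WT libraries for this gene, yet well below every TG library. Its log2 change of 1.87 (SE 0.15, adjusted p = 1.24e-05, limma) is the highest among the 16 tested genes. Summed, both genes gave 1741 ± 161 FPKM in TG and 569 ± 57.0 FPKM in WT, a ratio of 3.06. Dividing by all recovered reads in place of the authors' scaling raised the log2 ratio of these sums to 2.04 from 1.61, while the median of all genes moved to 0.32.

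H2-K1 was higher relative to H2-D1 in TG. The ratio of their FPKM within a library was 0.895, 1.02, 0.967 and 0.903 in TG 1, 2, 3 and 5 and 0.682, 0.672, 0.609 and 0.789 in WT 1, 2, 3 and 5. H2-K1 was therefore close to the level of H2-D1 in TG and clearly below it in WT, without overlap between the groups. In the order of mean FPKM, H2-D1 came first and H2-K1 second in both groups, but their ranges overlapped in TG and not in WT. A ratio within a library does not depend on the scaling of that library.

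The nonclassical class I genes were mostly higher in TG as well, but not uniformly. Of the 22, 8 were tested. Of these 6 were higher and 1 lower, where 22.3% and 21.8% of all tested genes were, and 1 did not pass the threshold. The FPKM of the 22 genes summed to 247 ± 26.2 in TG and 148 ± 32.6 in WT. The ratio of 1.66 was well under that of the classical pair. The tested genes fall in the Q, T and M regions of the complex.

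In the Q region, H2-Q7 and H2-Q6 encode heavy chains of the Qa-2 antigen. H2-Q7 (35439155 to 35443773, plus strand) had 17.04, 20.5, 25.9 and 17.2 FPKM in the TG libraries and 5.11, 4.601, 3.77 and 11.3 FPKM in the WT libraries. Every TG library stood above every WT library, and WT 5 stood more than any other WT library towards TG. H2-Q7 changed by 1.64 on the log2 scale (SE 0.27, adjusted p = 0.00113, limma). H2-Q6 (35424850 to 35430055, plus strand) had 29.0, 34.2, 29.9 and 28.0 FPKM in TG and 9.57, 13.7, 11.5 and 30.0 FPKM in WT. Here WT 5 reached the TG values, so the groups overlapped, while the other WT libraries stayed low. H2-Q6 passed the threshold at a log2 change of 0.99 (adjusted p = 0.0189, limma), and without WT 5 the change was 1.32 (adjusted p = 0.000102, limma). The call did not hold without TG 2 (adjusted p = 0.051, limma), without the filter on low values (0.0583) or without WT 2 and TG 5 (0.0701).

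H2-Q4, another class I gene of the Q region (35379617 to 35385290, plus strand), had 49.8, 53.9, 49.3 and 53.1 FPKM in TG and 22.95, 21.5, 24.7 and 40.5 FPKM in WT. The TG libraries were close together, and WT 5 was again the highest WT library, still below TG. Its log2 change was 0.93 (SE 0.18, adjusted p = 0.00257, limma). An antisense gene, Gm11131, overlaps H2-Q4, with a mean of 1.40 FPKM in TG and 0.548 FPKM in WT. The sources used here do not give the strand setting of the counting.

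H2-Q10 went the other way. It encodes a secreted class I molecule that in mice is known as a product of the liver. H2-Q10 (ENSMUSG00000067235, 35470089 to 35474563, plus strand) had 15.1, 19.8, 16.3 and 15.7 FPKM in TG and 51.3, 23.7, 29.6 and 37.5 FPKM in WT. All TG libraries lay below all WT libraries, which themselves spread more widely. Its log2 change was -0.99 (SE 0.21, adjusted p = 0.00413, limma). It kept its direction and its call in 22 of 22 alternatives, between -1.16 and -0.58, where -0.58 was the value on division by all recovered reads. Relative to H2-D1 in the same library, H2-Q10 stood at 0.0169 to 0.0203 in TG and at 0.0764 to 0.158 in WT, without overlap.

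The start regions of H2-D1, H2-Q4 and H2-Q10 are shown because they belong to related genes of which the first and second were higher in TG and the third lower. They are the 190 bases before the RefSeq start on GRCm38.p6, plus strand, at chr17:35262904-35263093 for H2-D1, chr17:35379427-35379616 for H2-Q4 and chr17:35469899-35470088 for H2-Q10. The RefSeq start of H2-D1 lies inside the gene as the deposited table places it. Capitals mark matches, on either strand, to GATTGG (the CCAAT box), TGACG (the core of the cAMP response element), the interferon-stimulated response element (GAAA, 2 free bases, GAAA) and a loose NF-kappaB form (GGG, 5 free bases, CC), and overlapping matches run together.
H2-D1: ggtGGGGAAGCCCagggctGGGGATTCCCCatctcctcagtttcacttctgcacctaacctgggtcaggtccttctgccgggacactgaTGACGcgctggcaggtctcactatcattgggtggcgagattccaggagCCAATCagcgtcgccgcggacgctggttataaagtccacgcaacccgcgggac
H2-Q4: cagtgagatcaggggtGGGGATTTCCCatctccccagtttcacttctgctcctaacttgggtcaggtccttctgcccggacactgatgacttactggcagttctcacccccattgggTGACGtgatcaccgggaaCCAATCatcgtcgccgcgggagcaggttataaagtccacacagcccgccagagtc
H2-Q10: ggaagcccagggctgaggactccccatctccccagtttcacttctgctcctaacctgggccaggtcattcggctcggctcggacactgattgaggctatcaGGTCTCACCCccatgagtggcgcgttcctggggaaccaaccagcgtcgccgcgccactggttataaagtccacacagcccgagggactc
H2-D1 has a CCAAT box 53 bases before its start and TGACG 101 bases before it, and H2-Q4 has them at 55 and 73 bases. In the 250 bases before the start of H2-Q10 the 1 match was to the NF-kappaB form, which 45.8% of the 32851 RefSeq promoters hold. A match describes letters and not a bound factor.

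Across the tested members, 14 had a promoter in the RefSeq table, and 12 of these held a CCAAT box within 250 bases of at least 1 start. Counted per promoter, as in the share of 14.6% of all promoters, it was 12 of 16, since H2-K1 and H2-DMa have a pair of starts each and a match before 1 of them. The H2-DMa start with the match lies 9664 bases before the gene start of the deposited table, so its window may not be the promoter of the transcripts counted. The genes with a match were H2-D1, H2-K1, H2-Q4, H2-Q6, H2-Q7, H2-T22, H2-T23, H2-Aa, H2-Eb1, H2-DMa, H2-DMb1 and H2-Ob, so the genes without a match in that window were H2-Q10 and H2-M3. TGACG, held by 17.8% of all promoters, was found before H2-D1, H2-K1, H2-M3, H2-Q4, H2-Q7, H2-T22 and H2-Aa. Of the interferon-stimulated response element only the form GAAA, 2 free bases, GAAA was searched, which 2.98% of all promoters have. Among these 14, only H2-T22 and H2-T23 held it. Elements of another form would not have been found. Many of these genes are copies of each other, so their promoters are not independent of one another.

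In the T region, H2-T23 encodes the heavy chain of Qa-1, which binds the CD94/NKG2A receptor of natural killer cells, and H2-T22 is a ligand of gamma delta T cells. H2-T23 (36029773 to 36032855, minus strand) had 25.9, 38.4, 37.1 and 28.1 FPKM in TG and 11.7, 10.7, 8.72 and 22.2 FPKM in WT. WT 5 was high among the WT libraries, and the groups did not overlap. H2-T23 changed by 1.29 on the log2 scale (adjusted p = 0.00286, limma). Its start region is shown for the interferon-stimulated response element, at chr17:36032702-36032841 on GRCm38.p6, minus strand, 140 bases from RefSeq, with the same motifs in capitals.
H2-T23: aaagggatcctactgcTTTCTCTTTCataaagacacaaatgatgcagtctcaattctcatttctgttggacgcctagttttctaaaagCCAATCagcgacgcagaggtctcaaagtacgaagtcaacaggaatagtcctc
The element lies 124 bases and the CCAAT box 52 bases before the RefSeq start. This start lies inside the gene as the deposited table places it, and so do both matches.

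H2-T22 (36037128 to 36042747, minus strand) had 70.9, 93.7, 103 and 87.9 FPKM in TG and 41.6, 43.7, 43.5 and 45.005 FPKM in WT. The WT libraries were within a few FPKM of each other, and every TG library was above them. Its log2 change was 1.00 (SE 0.12, adjusted p = 0.000183, limma). H2-T24, also of the T region, had 0.634, 1.08, 0.842 and 0.220 FPKM in TG and 0.817, 1.94, 0.345 and 2.60 FPKM in WT. The groups overlapped widely, and the log2 change of -0.44 did not pass the threshold (adjusted p = 0.266, limma).

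H2-M3, which presents N-formylated peptides of bacteria and mitochondria, was the 1 gene of the M region that was tested. H2-M3 (37270220 to 37274484, plus strand) had 6.42, 7.16, 5.54 and 5.46 FPKM in TG and 4.49, 3.15, 2.41 and 4.19 FPKM in WT. The groups did not overlap, though they came close, and the log2 change was 0.67 (adjusted p = 0.00868, limma). H2-M1 and the 6 H2-M10 genes, known in mice from neurons of the vomeronasal organ, had no read in any library. For these 7 genes, 3 reads over a group would have been a mean of at most 0.0313 FPKM in TG and 0.0571 FPKM in WT. The other 7 nonclassical genes with reads stayed below the tested level, and of these H2-M9 had the most, with 0.0654 to 0.291 FPKM in TG and 0.155 to 1.47 FPKM in WT.

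Related class I genes share sequence, so part of their reads cannot be assigned with certainty. Of all runs of 100 bases in the annotated transcripts of a gene, the share also present in another gene was 0.957% for H2-K1, 3.59% for H2-D1, 2.16% for H2-Q4 and 3.15% for H2-T23. For H2-Q10 it was 8.01%, for H2-T22 8.86%, for H2-Q6 10.8% and for H2-Q7 11.98%. With runs of 50 bases the shares were larger and their order differed, at 9.63% for H2-K1, 12.8% for H2-D1, 13.6% for H2-T23, 18.98% for H2-Q10, 21.8% for H2-Q4, 26.4% for H2-Q7, 31.97% for H2-Q6 and 34.5% for H2-T22. With runs of 150 bases none of these genes shared more than 5.99%. H2-Q10 shared its runs mainly with H2-Q7, which changed in the opposite direction. The sources used here do not give the read length or the treatment of reads with several matches, so which of these shares applies is not known.

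The genes that work with class I were also higher in TG in part. Of 15 such genes, all tested, 9 were higher, none was lower and 6 did not pass the threshold, with a median log2 change of 0.77. Among all tested genes 22.3% were higher and 21.8% lower. The light chain B2m had 1830 to 2282 FPKM in TG and 738 to 1098 FPKM in WT (log2 change 1.11, adjusted p = 0.000544, limma). The immunoproteasome subunits Psmb8 and Psmb9, which shape the peptides, had log2 changes of 1.44 and 1.20 (adjusted p = 0.000992 and 0.000365, limma), while the third subunit, Psmb10, had 0.23 (adjusted p = 0.249, limma). Tap2 of the peptide transporter changed by 0.81 (adjusted p = 0.000192, limma), whereas Tap1, the other part of the same transporter, had 5.31 to 8.89 FPKM in TG and 3.36 to 8.10 FPKM in WT (adjusted p = 0.452, limma). The peptide trimmer Erap1 and the loading chaperones Tapbp, Calr and Pdia3 were higher by 0.77 to 1.01, and Canx by 0.36. The changes of Tapbpl, of the proteasome activators Psme1 and Psme2 and of Nlrc5, the transactivator of class I genes, did not pass the threshold. How many of these genes passed depended on the scaling: on division by all recovered reads all 15 were higher, with the median of all genes at 0.32. The Canx call did not hold without TG 2, TG 3, TG 5 or WT 2 (adjusted p of 0.0575 to 0.07, limma).

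**Figure D2:**
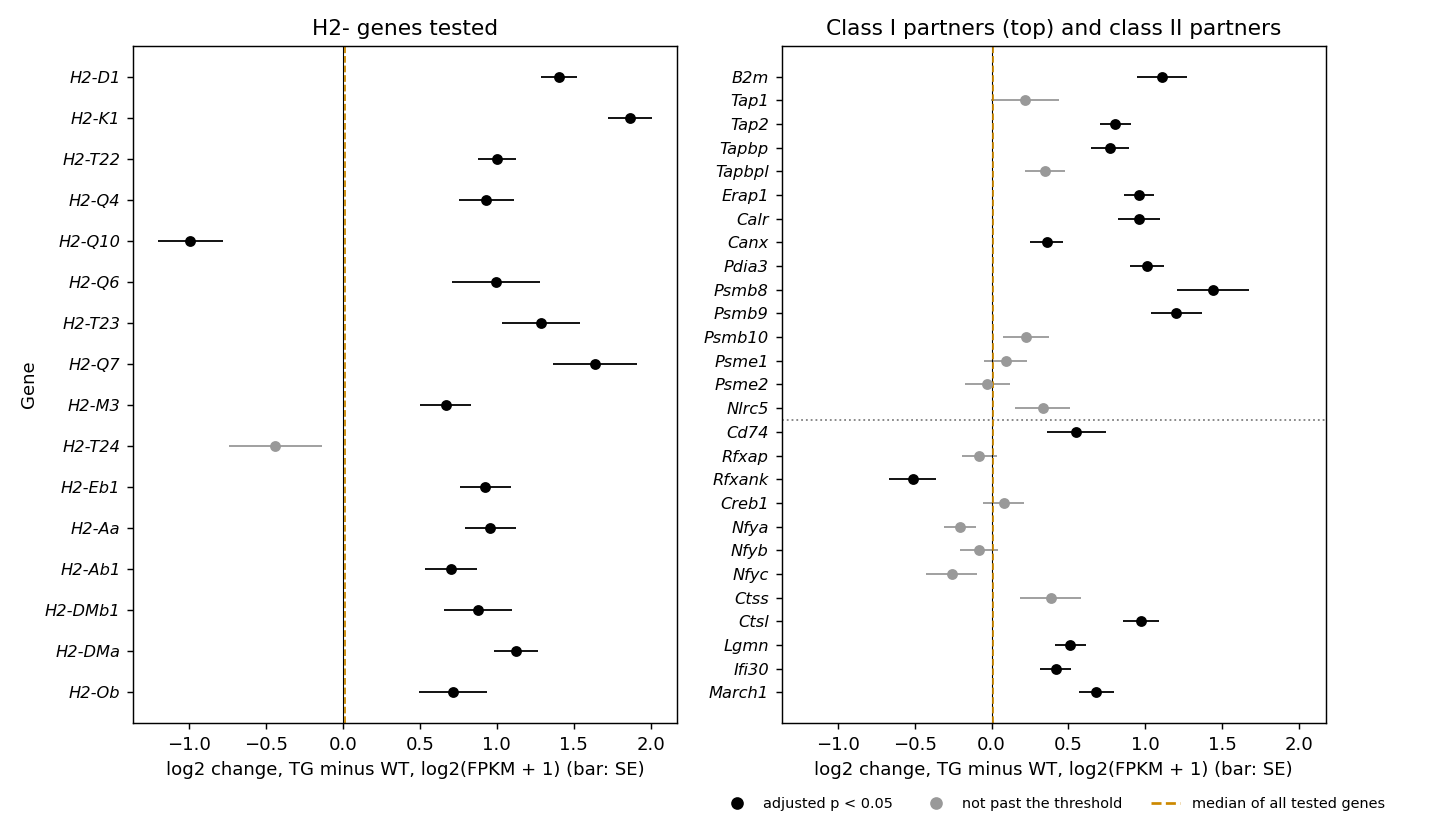
Log2 changes, TG minus WT, with their standard errors (n = 4 each), of the 16 tested H2- genes on the left and of the tested class I and class II partner genes on the right. The dashed line is the median of all tested genes (0.01), and grey marks genes that did not pass an adjusted p of 0.05. Of the H2- genes only H2-Q10 lies past the threshold on the negative side.

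H2-K1 was also higher relative to its light chain in TG. H2-K1 over B2m was 0.385 to 0.437 in TG and 0.214 to 0.283 in WT, without overlap. H2-D1 over B2m was 0.399 to 0.488 in TG and 0.321 to 0.421 in WT, where the ranges overlapped. The heavy chains of both genes stayed below B2m in every library on this per-length scale.

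Class II transcripts were higher in TG for both the presenting chains and the loading machinery. The 4 presenting genes summed to 434 ± 65.7 FPKM in TG and 238 ± 45.8 FPKM in WT (SD, n = 4 each), a ratio of 1.83. H2-Aa and H2-Ab1 encode the alpha and beta chains of the I-A molecule. H2-Aa (ENSMUSG00000036594, 34282744 to 34287827, minus strand) had 156, 131, 106 and 130 FPKM in TG 1, 2, 3 and 5 and 80.6, 51.5, 62.7 and 73.8 FPKM in WT 1, 2, 3 and 5. Each TG library was above each WT library, with TG 1 the highest of all, and the log2 change was 0.96 (SE 0.17, adjusted p = 0.00139, limma). H2-Ab1 (ENSMUSG00000073421, 34263209 to 34269418, plus strand) had 139, 121, 97.0 and 115 FPKM in TG and 77.8, 56.5, 64.7 and 91.7 FPKM in WT. The order of the TG libraries was that of H2-Aa, and WT 5 came close to TG 3 without reaching it. For H2-Ab1 the log2 change was 0.70 (SE 0.17, adjusted p = 0.00808, limma).

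H2-Eb1 encodes the beta chain of the I-E molecule (ENSMUSG00000060586, 34305877 to 34316199, plus strand). It had 224, 185, 158 and 174 FPKM in TG and 104, 77.0, 88.2 and 121 FPKM in WT. The groups did not overlap, and TG 1 was again highest. The log2 change was 0.92 (SE 0.16, adjusted p = 0.00165, limma). H2-Eb2, a second E beta gene, stayed below the tested level, at 0.304, 0.257, 0.456 and 0.0197 FPKM in TG and at 0, 0.202, 0.0341 and 0 FPKM in WT.

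The start regions of H2-Aa and H2-Eb1 are shown because class II promoters are known for a shared module that ends in the Y box, a CCAAT box. They are 140 bases from RefSeq on GRCm38.p6, at chr17:34287824-34287963, minus strand, and chr17:34305727-34305866, plus strand, with the 4 motifs above in capitals.
H2-Aa: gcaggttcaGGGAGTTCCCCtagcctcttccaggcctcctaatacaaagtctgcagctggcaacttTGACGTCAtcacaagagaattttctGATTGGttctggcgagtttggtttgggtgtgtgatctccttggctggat
H2-Eb1: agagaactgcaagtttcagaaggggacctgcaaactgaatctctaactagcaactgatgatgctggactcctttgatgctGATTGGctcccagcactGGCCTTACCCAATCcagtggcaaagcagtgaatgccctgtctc
The CCAAT box of H2-Aa lies 49 bases before its start and its nearest TGACG 71 bases before it. H2-Eb1 has CCAAT boxes 60 and 35 bases before its start and no TGACG in the 250 bases searched.

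The 3 main class II chains did not move as 1 block. H2-Aa over H2-Ab1 was 1.12, 1.09, 1.09 and 1.13 in TG 1, 2, 3 and 5 and 1.04, 0.911, 0.968 and 0.804 in WT 1, 2, 3 and 5. The alpha chain transcript exceeded that of its beta chain in every TG library and in WT 1 alone among the WT libraries. H2-Eb1 over H2-Ab1 was 1.52 to 1.63 in TG and 1.32 to 1.36 in WT, again without overlap. H2-Aa, H2-Ab1 and H2-Eb1 shared no run of 100 bases with any other gene.

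**Figure D3:**
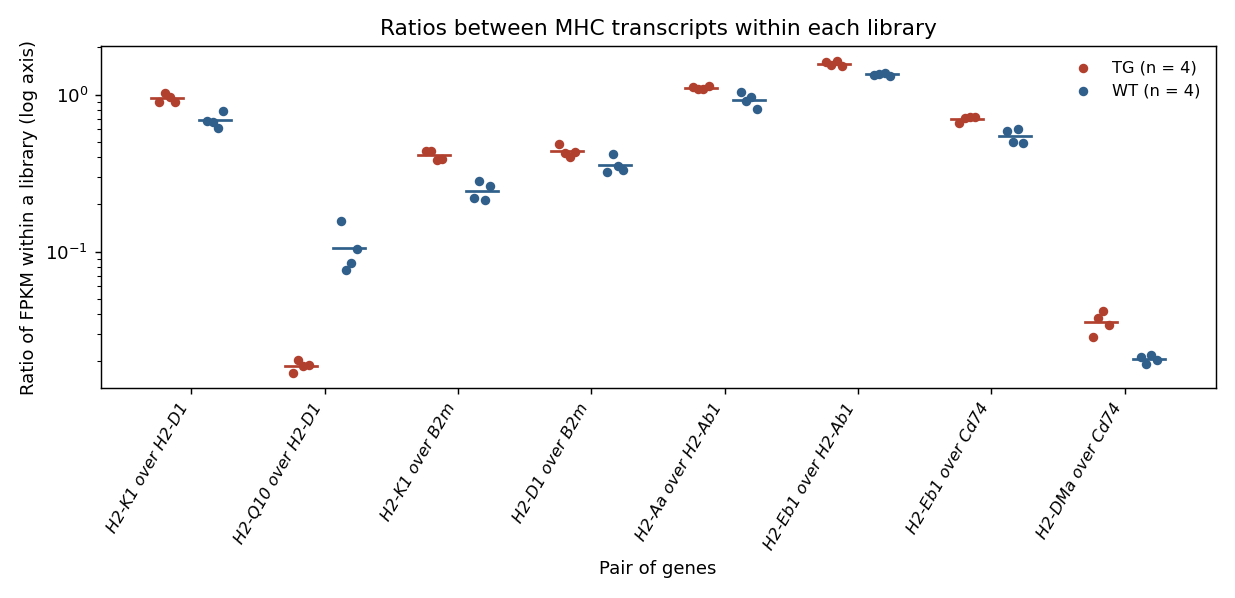
Ratio of FPKM between pairs of MHC genes within each library, on a log axis; each point is 1 mouse and each bar the mean of 4, TG left of WT. H2-Q10 over H2-D1 is lower in all TG libraries (0.0169 to 0.0203 in TG, 0.0764 to 0.158 in WT), and the other pairs shown are higher in TG, with overlap for H2-D1 over B2m.

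In the peptide-loading group, H2-DMa and H2-DMb1 encode the chains of H2-M, which exchanges the peptides bound to class II. H2-DMa (34135182 to 34139101, plus strand) had 9.69, 9.96, 9.17 and 8.19 FPKM in TG and 3.78, 2.99, 3.21 and 5.06 FPKM in WT. The groups lay well apart, and the log2 change of 1.12 (SE 0.14, adjusted p = 0.000215, limma) was the highest of the class II genes tested. H2-DMb1 (34153072 to 34160230, plus strand) had 13.6, 13.5, 11.6 and 12.6 FPKM in TG and 5.94, 4.10, 6.38 and 11.1 FPKM in WT. WT 5 nearly reached the TG libraries, while the other WT libraries were far below. For H2-DMb1 the log2 change was 0.88 (SE 0.22, adjusted p = 0.0105, limma). H2-DMb1 and its neighbour H2-DMb2, a second H2-M beta gene, share 11.3% and 10.3% of their runs of 100 bases with each other.

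H2-Oa and H2-Ob encode the chains of H2-O, an inhibitor of H2-M that is known mainly from B cells, and they and H2-DMb2 were low. H2-Ob (34238903 to 34245907, plus strand) had 1.64, 2.43, 1.39 and 0.526 FPKM in TG and 0.485, 0.684, 0.429 and 0.277 FPKM in WT. TG 5 lay within the WT range and the other TG libraries above it. The log2 change was 0.71 (adjusted p = 0.0261, limma), a call that did not hold without TG 1, TG 2, TG 3, WT 3 or WT 5 (adjusted p of 0.0527 to 0.0669, limma), nor in the fit without a filter (adjusted p = 0.0803, limma). Without TG 5 it was 0.93 (adjusted p = 0.00255, limma). H2-DMb2 had 1.96, 2.87, 2.30 and 0.485 FPKM in TG and 0.149, 0.261, 0.396 and 0 FPKM in WT, and H2-Oa had 1.24, 1.40, 1.53 and 0.332 FPKM in TG and 0, 0.396, 0.172 and 0.266 FPKM in WT. In both genes TG 1, 2 and 3 were high and TG 5 was near or within the WT values. Neither reached the tested level. In the fit without a filter, H2-DMb2 was higher in TG by 1.20 (adjusted p = 0.0238, limma) and H2-Oa by 0.78 (adjusted p = 0.0407, limma).

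Markers of B cells followed the same libraries. Cd79a, Cd79b, Ms4a1 and Pax5 summed to 10.06, 11.6 and 12.1 FPKM in TG 1, 2 and 3, to 1.33 FPKM in TG 5 and to 1.19 to 2.13 FPKM in the WT libraries. Of the 2 markers that were tested, Cd79b was higher in TG (log2 change 1.52, adjusted p = 0.00881, limma) and Cd79a had 1.05 (adjusted p = 0.0783, limma). The part of these markers in the values of H2-DMb2, H2-Oa and H2-Ob was not tested. H2-Aa, H2-Ab1 and H2-Eb1 stood in TG 5 at 130, 115 and 174 FPKM, between the values of the other TG libraries and above every WT library.

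**Figure D4:**
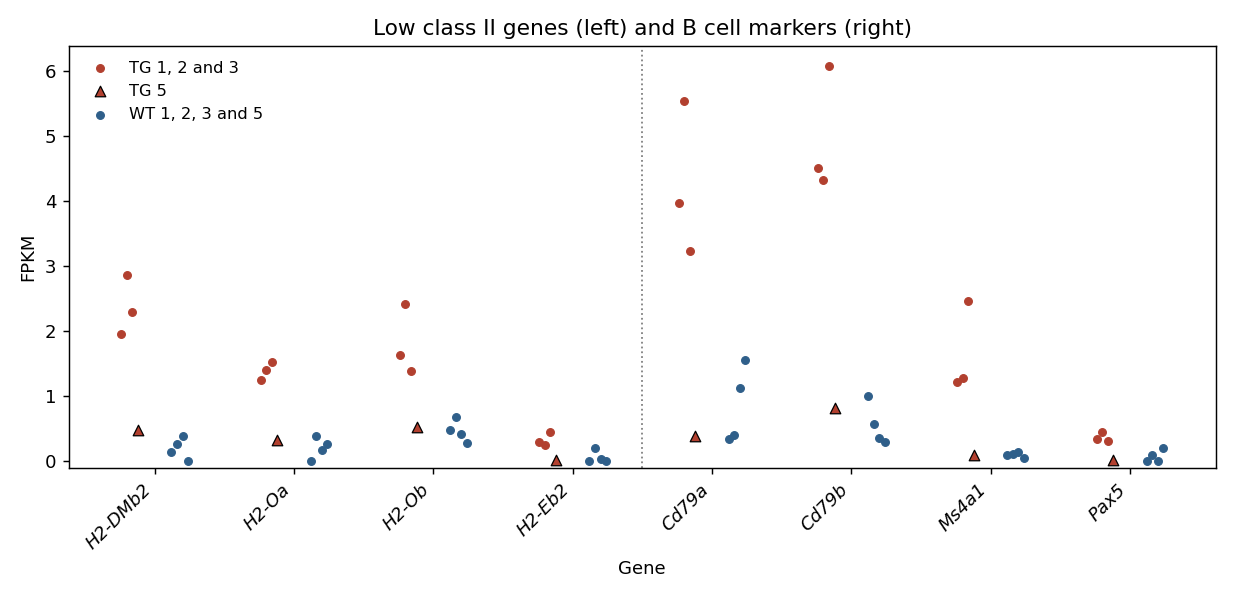
FPKM of the low class II genes H2-DMb2, H2-Oa, H2-Ob and H2-Eb2 (left of the dotted line) and of 4 B cell markers (right) in each library, with TG 5 drawn as a triangle. TG 1, 2 and 3 are high in most of these genes, and TG 5 lies at or near the WT libraries, as in the summed markers (1.33 FPKM in TG 5, 1.19 to 2.13 FPKM in WT). The genes drawn on the right were chosen with their values known.

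Of 14 genes that work with class II or control it, 12 were tested. In this set 5 were higher and 1 lower, where 22.3% and 21.8% of all tested genes were. Another 6 did not pass the threshold, and the median log2 change of the 12 was 0.23. Cd74, the invariant chain that escorts class II, had 339, 263, 218 and 240 FPKM in TG and 177, 155, 147 and 248 FPKM in WT. WT 5 lay above TG 3 and TG 5, so the groups overlapped. The log2 change was 0.55 (adjusted p = 0.0426, limma), a call that did not hold in 10 of 22 alternatives, among them leaving out TG 1, TG 2, TG 5, WT 1, WT 2 or WT 3 (adjusted p of 0.0644 to 0.108, limma). The endosomal proteases Ctsl and Lgmn and the reductase Ifi30, which prepare peptides, were higher by 0.97, 0.51 and 0.42, and March1, a ubiquitin ligase that takes class II off the surface, by 0.68. March1 reached the tested level through the TG libraries alone, with 0.818 to 1.34 FPKM in TG and 0.218 to 0.404 FPKM in WT. Rfxank, a subunit of the RFX factor of class II promoters, was lower (log2 change -0.51, adjusted p = 0.0205, limma), which did not hold on division by all recovered reads (-0.20, adjusted p = 0.293, limma) or without TG 1 or TG 3. Changes of Ctss, Creb1, Rfxap, Nfya, Nfyb and Nfyc did not pass the threshold, and those of the last 4 were below 0 but turned positive on division by all recovered reads. With that scaling Ctss and Creb1 passed it, at log2 changes of 0.79 and 0.39 (adjusted p = 0.00351 and 0.0185, limma). Ciita, the transactivator of class II genes, stayed below the tested level, with 0.616, 0.609, 0.666 and 0.238 FPKM in TG and 0.142, 0.257, 0.166 and 0.394 FPKM in WT. TG 5 again fell inside the WT range, and the other TG libraries lay above it.

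Of 4 class II genes set against Cd74 within a library, 3 had higher ratios in each TG library than in any WT library. H2-Eb1 over Cd74 was 0.663 to 0.722 in TG and 0.488 to 0.601 in WT, and H2-Aa over Cd74 was 0.460 to 0.540 in TG and 0.297 to 0.455 in WT, without overlap, though narrowly so for H2-Aa. H2-DMa over Cd74 was 0.0286 to 0.0420 in TG and 0.0193 to 0.0219 in WT. For H2-Ab1 over Cd74 the groups overlapped, at 0.412 to 0.476 in TG and 0.364 to 0.441 in WT.

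Interferon-gamma is the best known inducer of both classes. In a list of 13 genes of interferons and their signalling, 11 were tested. Of these 2 were higher and 1 lower, where 22.3% and 21.8% of all tested genes were. The other 8 did not pass the threshold, and the median log2 change of the 11 was -0.04. With a rescaling that left out mitochondrial, haemoglobin and the 20 most abundant genes, on division by all recovered reads and with limma voom, a variance model for read counts, 5 were higher, where the median of all genes moved to between 0.28 and 0.45. The receptor chain Ifngr1 had 65.0 to 77.8 FPKM in TG and 25.3 to 39.8 FPKM in WT (log2 change 1.10, adjusted p = 0.000256, limma). Ifnar1, a chain of the type I interferon receptor, changed by 0.57 (adjusted p = 0.0029, limma). Jak2, a kinase of the interferon-gamma receptor, was the gene that was lower (-1.08, adjusted p = 0.00597, limma), and the following genes were named after their values were seen. Ifng itself stood at 0 to 0.237 FPKM in TG and 0 to 0.944 FPKM in WT, and Irf1, the factor between interferon and the class I promoters, at 9.48 to 14.7 FPKM in TG and 6.43 to 18.3 FPKM in WT (adjusted p = 0.832, limma).

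Class I-like genes outside the complex showed both directions. Of 9 listed, 6 were tested, and 2 of these did not pass the threshold. Another 3 were higher and 1 lower, where 22.3% and 21.8% of all tested genes were. With the rescaling, the division by all recovered reads and voom 5 were higher, and with the rescaling none was lower. Cd1d1, which presents lipids to natural killer T cells, had 125, 135, 132 and 133 FPKM in TG and 49.6, 52.3, 69.1 and 39.0 FPKM in WT (log2 change 1.33, adjusted p = 0.000145, limma). Every TG library was far above every WT library. Mr1, which presents vitamin B metabolites, and Hfe, a regulator of iron uptake, were higher by 0.78 and 0.99, and Procr, a receptor of the clotting system that was named after its value was seen, was lower (-0.98, adjusted p = 0.0112, limma). Among 3 tested ligands that co-stimulate or restrain T cells, Icosl was higher by 0.52, a call lost without TG 1, Cd86 had 0.08 and Cd274, the inhibitory ligand PD-L1, was lower (-1.50, adjusted p = 0.000144, limma). Cd274 had 1.86 to 2.57 FPKM in TG and 6.02 to 11.7 FPKM in WT, opposite in direction to the classical class I genes. Of 5 tested receptors that bind MHC molecules, 1 was higher, where 22.3% of all tested genes were. It was Cd8b1 (0.59, adjusted p = 0.0456, limma), a call that held in 11 of 17 alternatives that could test it.

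Markers of several cell types moved between the groups as well, where 22.3% of all tested genes were higher and 21.8% lower. The 11 macrophage markers summed to 408 to 494 FPKM in TG and 243 to 404 FPKM in WT, and 5 of them were higher, among them Mrc1, Cd14 and Csf1r. The other 6 did not pass the threshold, and Cd68, Mertk and Fcgr1, named after their values were seen, had log2 changes of -0.39, -0.32 and -0.13. The count of higher macrophage markers was 8 with the rescaling, the division and voom, 3 without the filter or without TG 1, and 1 without WT 2 and TG 5. The 9 dendritic cell markers summed to 18.1 to 27.2 FPKM in TG and 9.62 to 16.4 FPKM in WT. Of the 7 tested, Clec10a and Cd209a were higher and Itgax and Zbtb46 lower, the last named after its value was seen. Neither was called lower with the rescaling, the division, voom or the replicate block. Nor was either called lower when any 1 library other than WT 1 was left out. Without TG 1, WT 2, WT 3 or WT 5, however, Itgax fell below the tested level and could not be tested. The call of Cd209a was lost without TG 1, TG 5, WT 3 or WT 5. The 7 T cell markers summed to 11.5 to 20.5 FPKM in TG and 3.90 to 9.23 FPKM in WT, a separation carried by Thy1, which stromal cells also have, with 9.51 to 11.96 FPKM in TG and 1.98 to 5.36 FPKM in WT. The other 6 summed to 7.02, 9.82 and 7.25 FPKM in TG 1, 2 and 3, to 1.65 FPKM in TG 5 and to 1.49 to 4.68 FPKM in WT, so TG 5 lay within the WT range in T cell as in B cell markers. The natural killer cell markers summed to 2.13 to 5.65 FPKM in TG and 1.43 to 3.16 FPKM in WT. Of the 4 pan-leukocyte genes only Cd53 passed the threshold (0.32, adjusted p = 0.0422, limma), in 12 of 22 alternatives. All 6 endothelial markers and the 4 tested neutrophil markers were lower in TG. Of the neutrophil markers, 2 were lower without TG 2, without TG 3 or without the filter, and 1 without WT 2 and TG 5. The neutrophil list summed to 4.22 to 26.7 FPKM in TG and to 129 to 394 FPKM in WT 2, 3 and 5. In WT 1 it summed to 13.5 FPKM, within the TG range. Of 7 adipocyte markers 6 were higher, with 7863 to 10855 FPKM in TG and 4451 to 5820 FPKM in WT. Set within a library against 3 markers chosen with their values known, H2-Aa overlapped between the groups over the macrophage marker Adgre1 (17.6 to 26.7 in TG, 14.03 to 20.5 in WT) and over the pan-leukocyte marker Ptprc (70.4 to 186.8 in TG, 40.7 to 164 in WT). Over the dendritic cell marker Itgax the groups did not overlap (297 to 529.8 in TG, 58.4 to 189.98 in WT). Itgax itself was low, with 0.245 to 0.524 FPKM in TG and 0.424 to 1.00 FPKM in WT. It reached 0.5 FPKM in TG 1, WT 2, WT 3 and WT 5 alone, and its lower values in TG raise this ratio. The part of these markers in the MHC values was not tested.

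**Figure D5:**
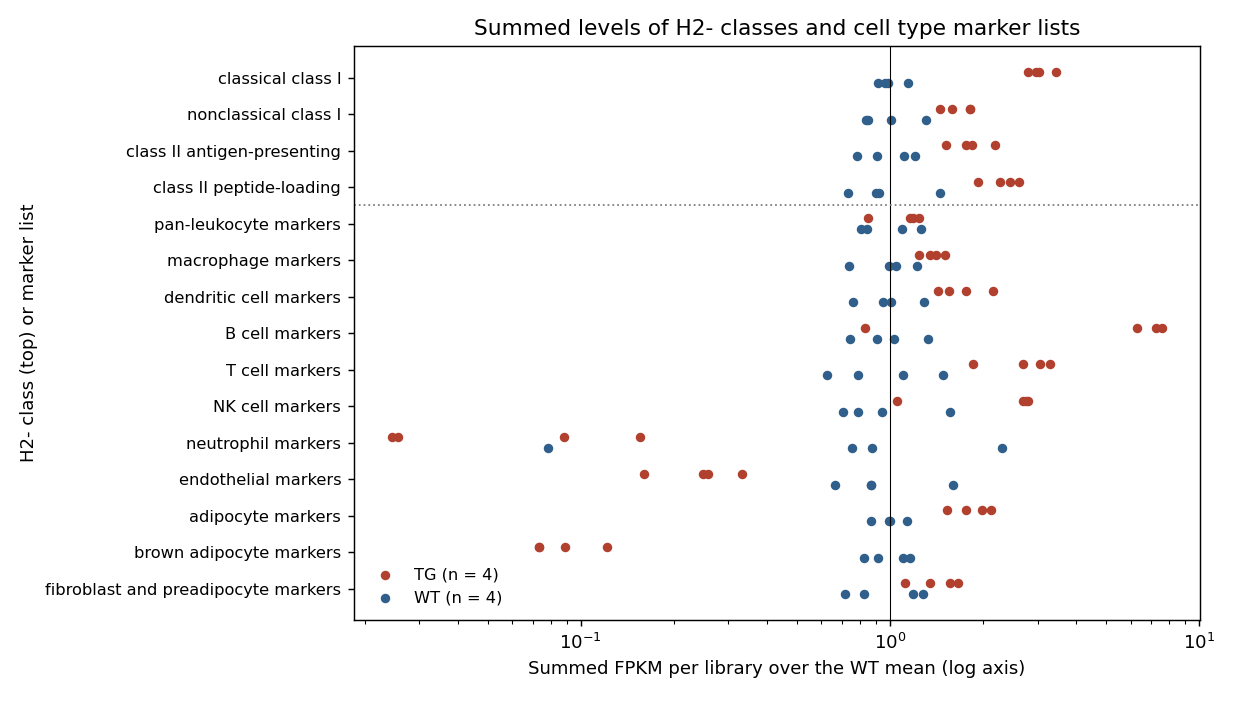
Summed FPKM per library of the H2- classes (above the dotted line) and of the cell type marker lists (below it), each divided by its WT mean, on a log axis; each point is 1 mouse, TG drawn above WT. The classical class I sum is 3.06 times the WT mean on average in TG. The macrophage, dendritic cell, T cell and adipocyte lists also lie to the right of WT, while endothelial and brown adipocyte lists lie to the left. The neutrophil list lies to the left as well, except that WT 1 falls within the TG range. The pan-leukocyte, B cell, natural killer cell and fibroblast lists overlap between the groups.

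H2-Ke6, the dehydrogenase gene that shares only the name and the location, was low and went opposite to most of the complex. It had 0.137, 0.0616, 0.400 and 0.0569 FPKM in TG and 0.443, 0.776, 0.834 and 1.03 FPKM in WT. The groups did not overlap, the gene did not reach the tested level, and in the fit without a filter it was lower (log2 change -0.60, adjusted p = 0.0172, limma). Of its runs of 100 bases 61.6% are shared with the overlapping gene Gm20427, so the split of reads between both is uncertain.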

How the data were processed

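Brown adipose tissue RNA of 4 TG and 4 WT mice was measured. The authors deposited FPKM per gene for 54532 genes. The submitters' processing notes name the build mm10 and, as tools, featureCounts 1.5.0-p3, HISAT2 2.0.5 and bcl2fastq. The order of the tools, the annotation release, the strand setting, the read length and the divisor behind the FPKM: not given in the sources used here. Multiplied by gene length, FPKM gave whole reads in every library, within 1.61e-07 of a whole number, and the recovered reads came to 0.822 to 0.883 of the divisor in TG and 1.02 to 1.22 of it in WT, so the authors' values hold a scaling beyond the total. More reads give smaller counting error, and the levels and 3-read limits cover counting error only.

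TG and WT were compared by limma 3.58.1 under R 4.3.3 (two-sided, eBayes with an intensity trend) on log2(FPKM + 1) of the 12508 genes for which 4 or more libraries reached 0.5 FPKM, adjusted after Benjamini-Hochberg over all of them at 0.05. The p-values measure the spread between mice. The procedure was tested on simulated data in which both groups had the same mean profile apart from a set of changed genes. Each simulated library was scaled by its total. The simulation therefore did not cover the difference in mitochondrial share or the authors' scaling. Sums, ratios and lists are described without a test. One gene of the interferon list and one of the B cell list are not reported here, and the counts and sums of both lists leave them out.

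Members and lists were chosen with earlier results of these data known. Named genes are every H2- gene, every class I and class II partner, up to 3 genes with the lowest p of each other list, and Clcf1; genes outside this rule were named after their values were seen. Mouse promoters came from RefSeq (GRCm38.p6), where 31 of the 34 members were matched by symbol, and shared sequence was counted in GENCODE M21 transcripts, which hold all 34 members, 26 at the same coordinates. Alternatives covered the pseudocount, the filter, the scaling, the variance model, restriction to protein-coding genes, a block for the replicate number and leaving out libraries. Dividing by reads from outside the mitochondrial chromosome was added after seeing the data.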

Additional observations from a re-analysis of the deposited data

Results flagged for a closer look

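For each tested H2- gene and each class sum, the library farthest from the rest of its group was compared with the spread of that group, over 44 groups of 4 libraries. Chance flags about 1 in 20 groups, and 2 were found. In both the library was WT 5, which stood above the other WT libraries. H2-K1 had 287.1 FPKM in WT 5, against 208.5 to 221.9 FPKM in the other WT libraries, a gap of 0.830 of the whole range, just past the critical value of Dixon's test for 4 samples. H2-Q4 had 40.51 FPKM in WT 5, against 21.5 to 24.7 FPKM in the other WT libraries, a gap of 0.834 of the range. Without WT 5 the log2 change was 1.97 for H2-K1 and 1.13 for H2-Q4 (adjusted p = 1.26e-05 and 3.6e-05, limma). WT 5 also held the highest mitochondrial read share of the WT libraries, 37.5%, and its part in these values was not tested.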

How the results depend on the processing

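Over 22 alternatives, 13 of the 16 tested H2- genes kept their direction and their call in every one: H2-D1, H2-K1, H2-T22, H2-Q4, H2-Q10, H2-T23, H2-Q7, H2-M3, H2-Eb1, H2-Aa, H2-Ab1, H2-DMb1 and H2-DMa. H2-Q6 kept its call in 19, between adjusted p of 0.000102 and 0.0701, and H2-Ob in 14 of 20 (limma). The count of higher H2- genes stayed within 1.5 times 14 in each, and 2 H2- genes were lower without the filter, where more genes are tested. The log2 ratio of the classical class I sums was 2.40 with quantile normalisation, 1.99 with rescaling that left out mitochondrial, haemoglobin and the 20 most abundant genes and 2.04 on division by all recovered reads. With the same rescaling and the same division, that of the nonclassical sums was 1.10 and 1.17, of the class II antigen-presenting sums 1.26 and 1.31 (1.23 with quantile normalisation) and of the peptide-loading sums 1.58 and 1.65. These scalings moved the median of all genes to 0.28 and 0.32, and limma voom on the recovered reads to 0.45. Class I partners higher in TG numbered 14 with the rescaling and 15 with that division and with voom. Class II partners higher in TG numbered 3 without WT 2 and TG 5 and 3 to 6 when leaving out 1 library; those lower numbered 0 without the filter, with a filter of 5 FPKM, with the rescaling, the division, voom, the replicate block and without WT 2 and TG 5, and 0 to 2 when leaving out 1 library. Some partner genes that were not called changed sign. Psme2 gave 0.0276 with upper quartile scaling, 0.16 with quantile normalisation, 0.35 with the rescaling, 0.40 on the division, 0.40 with voom, 0.0068 without WT 2 and TG 5 and -0.129 to 0.0656 when leaving out 1 library. With the rescaling, the division and voom, Rfxap gave 0.23, 0.28 and 0.34, Nfya 0.0356, 0.0655 and 0.0993, Nfyb 0.21, 0.25 and 0.32, and Nfyc 0.0727, 0.11 and 0.14. The cause was not tested. Same-numbered TG and WT libraries correlated at -0.24 to 0.04 in their deviations, and differently numbered ones at -0.17 to 0.39. Such correlations cannot tell whether the numbers pair the mice, and the labels do not say. With the replicate block 14 H2- genes were higher and 1 lower, while Cd74 (adjusted p = 0.0506, limma), Canx (0.0625) and Rfxank (0.0583) lost their calls, and 2389 of all genes were higher and 2458 lower. Genes below the tested level had few reads, yet H2-DMb2, H2-Oa and H2-Ke6 passed the threshold in the fit without a filter. Differences among the lowest genes could have gone undetected at this depth.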

Other observations

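The table lists 11 further genes of the complex that are not annotated as protein-coding and so belong to no comparison above. H2-Ea-ps, the pseudogene of the alpha chain that would pair with H2-Eb1 in the I-E molecule, had no read in any of the 8 libraries, and 3 reads over a group would have been a mean of 0.0483 FPKM in TG and 0.0880 FPKM in WT. H2-Eb1, its partner in strains that make I-E, was the most abundant class II gene by mean FPKM in both groups, at 185 ± 28.4 FPKM in TG and 97.7 ± 19.3 FPKM in WT (SD, n = 4 each).

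H2-T10, which like H2-T22 is known as a ligand of gamma delta T cells and is annotated here as a polymorphic pseudogene, had 1.56, 2.94, 2.41 and 2.16 FPKM in TG and 0.645, 0.826, 0.528 and 0.690 FPKM in WT. H2-Q5 had 5.59, 6.26, 6.27 and 4.47 FPKM in TG and 1.44, 2.94, 2.32 and 5.60 FPKM in WT, where WT 5 again lay with the TG libraries. H2-K2, an unprocessed pseudogene near H2-K1, had 0.582 to 2.57 FPKM in TG and 1.35 to 6.83 FPKM in WT.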
